A study of Mus musculus with 18 samples.

Results

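E0771 cells derive from a mammary tumor of the mouse and serve as a model of triple-negative breast cancer. The interaction of Senexin B (SnxB) with knockdown of Cdk8 was read from RNA sequencing of all 18 of the 18 libraries of the study, which cover 3 cell lines in 2 conditions with 3 libraries each. All cells carried a firefly luciferase transgene under a CMV promoter, and then a retroviral hairpin. The cntrl line carried a hairpin against Renilla luciferase, a gene that mouse cells lack, and the shCdk8-1 and shCdk8-2 lines each carried 1 hairpin against Cdk8. Cells of each line received either DMSO or SnxB at 1 µM, and RNA was taken after 48 h. A transduced line stands for 1 hairpin, and the sources used here do not state that any line is a clone, or whether separate cultures gave the 3 libraries of a group, so p-values measure the spread between these libraries, which may be technical.

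CDK8 and its paralog CDK19 are kinases of the Mediator complex, which links transcription factors bound at enhancers to RNA polymerase II. Either kinase joins cyclin C, MED12 and MED13 in a module that docks on the Mediator core reversibly and can raise or lower transcription, in part by phosphorylating transcription factors. SnxB blocks the kinase activity of both paralogs and leaves the proteins in place, while a hairpin lowers the amount of 1 of them. The comparison therefore asks whether cells with less CDK8 respond to the kinase inhibitor as cntrl cells do.

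For each gene, the SnxB effect was the log2 fold of SnxB against DMSO within a line. The difference of effects was the SnxB effect in a shCdk8 line minus that in cntrl, and the mean difference was the mean of the differences of both lines. A value of 0 means that SnxB changed the gene by the same factor with and without the hairpin, and a negative value means that the SnxB effect was lower in the shCdk8 cells. Levels are CPM, the count of a gene relative to the library's total count, scaled by TMM, a between-library factor of edgeR. A difference was called at an adjusted p under 0.05 (edgeR's quasi-likelihood test on 18 libraries, Benjamini-Hochberg over 12772 genes), and those beyond 2-fold, a log2 difference above 1 in size, were counted apart.

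The libraries held 16452260 to 22664693 counts (median 19029320), and 3 counts corresponded to 0.132 to 0.182 CPM. The lowest TMM factor, 0.950, was that of cntrl replicate 1 in SnxB, and the others lay between 0.981 and 1.02. Of 14 mammary epithelial markers, 7, among them Krt18, Krt19, Krt5, Krt14, Elf5 and Cldn3, had at most 3 counts in every library, and Erbb2 was at 45.8 to 60.7 CPM. Other markers set the lines apart: Esr1 was at 18.2 to 24.2 CPM in cntrl and 0.476 to 1.54 CPM in the shCdk8 lines, Krt8 at 0 to 0.0616 and 6.51 to 13.6 CPM, and the endothelial marker Pecam1 at 0.185 to 0.379 and 5.64 to 17.6 CPM. Of 8 fibroblast markers, the receptors Pdgfra and Pdgfrb were at 221 to 387 and 156 to 341 CPM. Col1a1 was at 0.441 to 1.97 CPM in cntrl and 9.26 to 24.8 CPM in the shCdk8 lines. Dcn, Col1a2 and Lum reached at most 2.38, 0.846 and 0.345 CPM, and Thy1 and Fap had at most 3 counts in every library. Leukocyte markers summed to 2.96 to 8.12 CPM over 12 genes, and endothelial markers to 3.02 to 19.8 CPM over 6 genes. Mitochondrial genes took 0.448 to 1.70% of the counts, with the lowest shares in shCdk8-1 replicate 2 in DMSO (0.448%), cntrl replicate 1 in SnxB (0.694%) and shCdk8-1 replicate 2 in SnxB (0.795%).

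Cdk8 itself, at chr5:146231230-146302874 of GRCm38, was at 54.8 to 58.6 CPM in cntrl, 18.7 to 23.4 CPM in shCdk8-1 and 38.5 to 39.2 CPM in shCdk8-2 cells in DMSO. In SnxB it was at 53.6 to 57.3, 20.2 to 24.8 and 36.6 to 41.6 CPM. The shCdk8 libraries lay below all cntrl libraries in both conditions, with the lower levels in shCdk8-1. The mean difference of SnxB effects on Cdk8 was 0.09 (95% interval -0.09 to 0.28, adjusted p = 0.78), so a change of the knockdown by SnxB was not detected. Cdk19 was at 93.5 to 93.9 CPM in cntrl, 123 to 129 CPM in shCdk8-1 and 101 to 104 CPM in shCdk8-2 in DMSO. In SnxB it was at 95.1 to 102, 125 to 139 and 111 to 120 CPM. All shCdk8 libraries thus lay above all cntrl libraries in both conditions, as for 26.6% of all genes in DMSO and 24.3% in SnxB. Its mean difference was 0.04 (-0.07 to 0.15, adjusted p = 0.846).

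The mean difference passed the adjusted p for 45 genes, 0.352% of the 12772 tested. The SnxB effect was lower in the shCdk8 lines for 38 of them (0.298%) and higher for 7 (0.0548%). Only 5 genes went beyond 2-fold (0.0391%), namely Atp6v0a4, Cd244a, Agt and Thbs2, which were lower (0.0313%), and Ppp1r16b, which was higher (0.00783%). All 5 had low counts in at least 1 group. In cntrl in DMSO Atp6v0a4 had 12 to 16 counts per library, Cd244a 7 to 19, Agt 17 to 24 and Thbs2 26 to 52. Ppp1r16b had 19 counts in each shCdk8-2 library in DMSO. Of the other lower genes, 7 lay between -0.5 and -1 and 27 above -0.5. At an unadjusted p under 0.05 there were 1134 genes (8.88%). The count fell from 45 to 26 without cntrl replicate 1 in DMSO, to 17 without cntrl replicate 2 in DMSO, to 21 without cntrl replicate 1 in SnxB, to 26 without shCdk8-2 replicate 2 in DMSO and to 28 without shCdk8-2 replicate 2 in SnxB, and the count beyond 2-fold fell from 5 to 2 or 3 without each of these 3 cntrl libraries or cntrl replicate 3 in SnxB. Without the 3 libraries of lowest mitochondrial share, a setting chosen after seeing the data, 25 genes passed, 2 of them beyond 2-fold, and of the 45 all kept their direction and 19 stayed past the threshold. Across 8 other settings and 18 fits that each left out 1 library, all 45 genes kept their direction, and 12 stayed past the threshold wherever a p-value was given: Acta2, Adm, Atp6v0a4, Cbr2, Ccl7, Cdkn1a, Ereg, Gas7, Kctd14, Nptx1, Pgbd5 and Ppp1r16b. These 12 also passed without the 3 libraries.

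**Figure D1:**
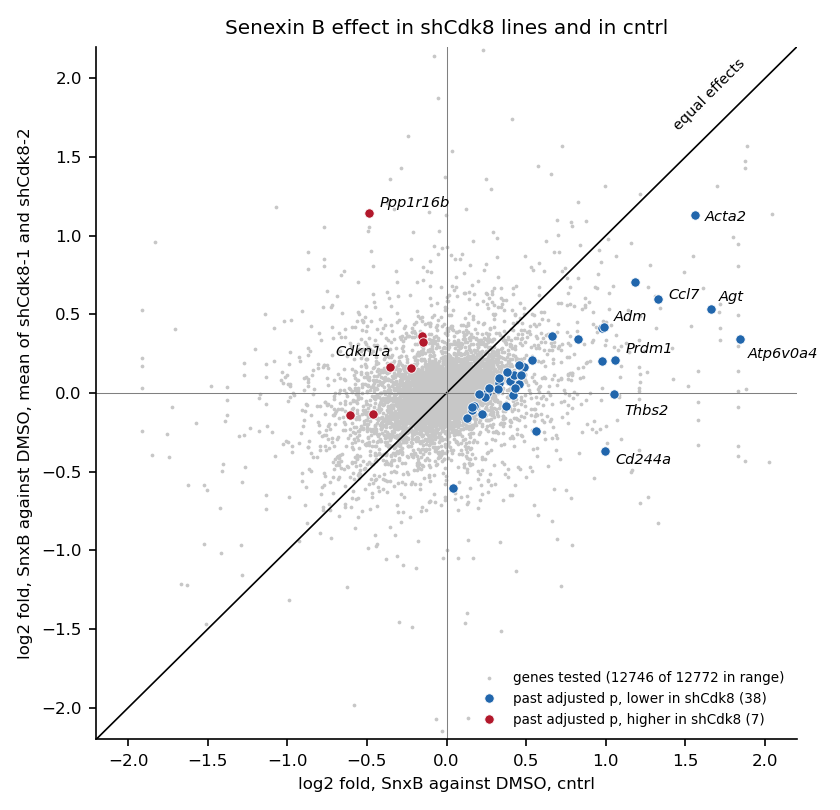
SnxB effect (log2 fold of SnxB against DMSO) in cntrl on the x axis and its mean over shCdk8-1 and shCdk8-2 on the y axis, with 1 point per gene. Genes on the diagonal had equal effects. The 38 called lower genes (blue) lie below the diagonal, to the right of 0 on the x axis, and the 7 called higher genes (red) lie above it, to the left of 0.

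The lower genes shared 1 arrangement. In cntrl the mean SnxB effect on all 38 was above 0, beside 52.2% of all genes. For 37 every SnxB library lay above every DMSO library, an order that 12.2% of all genes showed. In the shCdk8 lines the mean effect on 25 of the 38 (65.8%) kept that sign at a smaller size, beside 37.1% of all genes. For 13 (34.2%) it had the opposite sign, near the 39.1% of all genes. All SnxB libraries lay above all DMSO libraries for 12 of the 38 in shCdk8-1 (background 8.57%) and for 19 in shCdk8-2 (10.7%), and below them for 8 in shCdk8-1 (7.54%) and for 4 in shCdk8-2 (10.6%). The 7 higher genes mirrored this: their SnxB effect in cntrl was below 0 for all 7, with every SnxB library below every DMSO library for 5 (9.57%). In the shCdk8 lines it was above 0 for 5, beside 50.3% of all genes. It was a smaller negative value for 2, beside 37.1% of all genes with a smaller effect of the same sign. In DMSO all shCdk8 libraries lay above all cntrl libraries for 18 of the 38 lower genes (26.6%) and below them for 14 (26.3%), and in SnxB for 15 (24.3%) and 19 (25.4%), so the lower genes were of both kinds. None of the 45 genes had a larger effect of the same sign in the shCdk8 lines, beside 23.8% of all genes. These counts use the same libraries as the call, so they describe the called genes and test nothing.

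The mean level of the called genes, in CPM and so not per length, ran from 1.77 to 1848 with a median of 48.7, and the median over all genes tested was 31.8. The median difference was -0.35 for the lower genes, 0.47 for the higher genes and -0.0065 over all genes. The median standard error was 0.0868, and for 85.4% of the genes the 95% interval lay within 2-fold in either direction. These errors measure the spread between the libraries, which may be technical, and not between separate transduced lines.

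**Figure D2:**
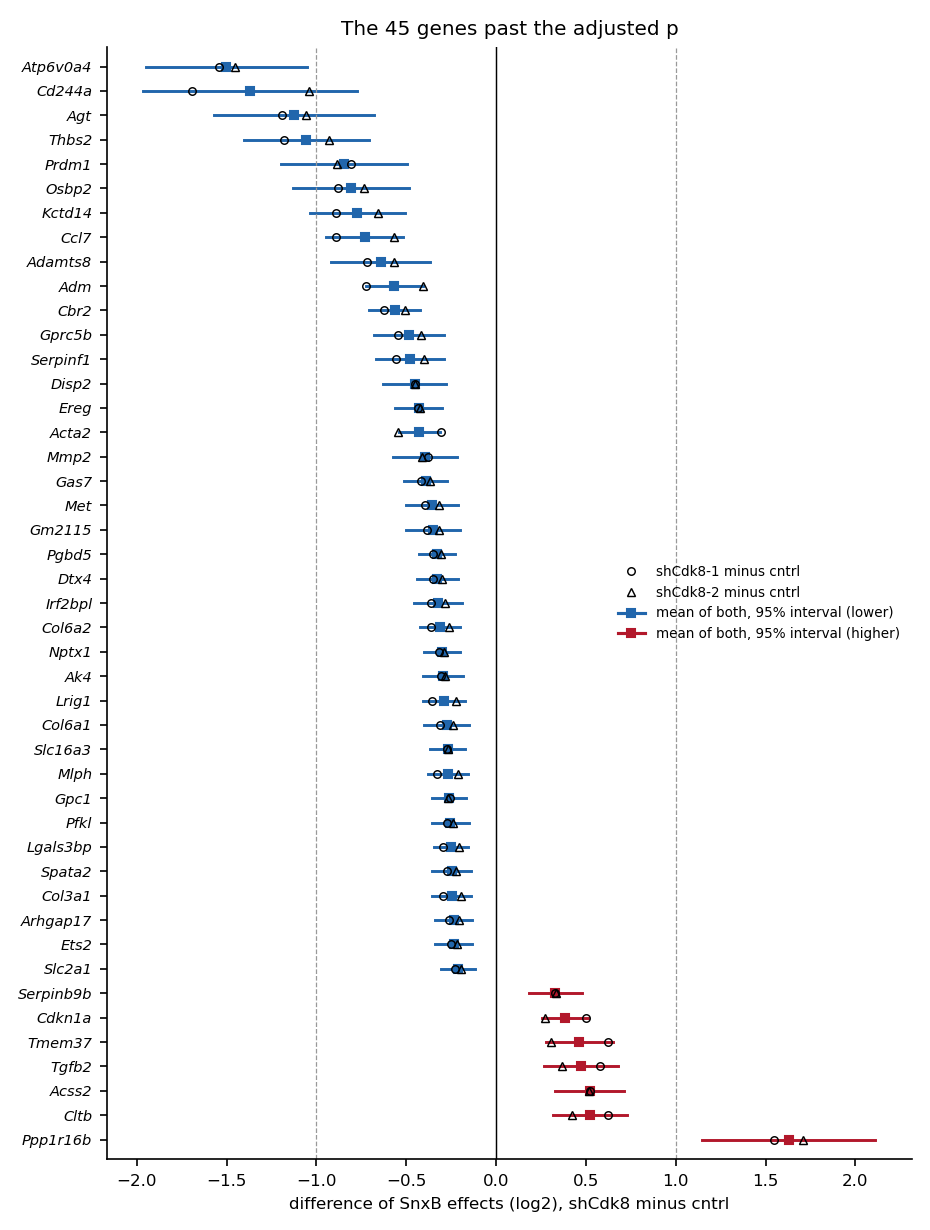
Difference of SnxB effects (log2) for the 45 called genes, with squares and bars for the mean of both shCdk8 lines and its 95% interval, circles for shCdk8-1 minus cntrl and triangles for shCdk8-2 minus cntrl. Values run from -1.50 for Atp6v0a4 to 1.63 for Ppp1r16b, both lines lie on the same side of 0 for every gene, and dashed lines mark 2-fold.

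Acta2, which encodes smooth muscle alpha-actin, a filament protein of contractile and activated stromal cells, had the lowest adjusted p of all genes in shCdk8-2. In cntrl cells, Acta2 was at 133, 148 and 145 CPM in DMSO and at 421, 426 and 410 CPM in SnxB. In shCdk8-1 cells it was at 94.6, 92.4 and 96.8 CPM and at 208, 236 and 232 CPM. In shCdk8-2 cells it was at 207, 216 and 202 CPM and at 425, 424 and 415 CPM. All SnxB libraries lay above all DMSO libraries within each line, with the widest gap in cntrl, and the shCdk8-2 and cntrl libraries reached the same range in SnxB from different ranges in DMSO. The mean difference was -0.43 ± 0.056 (SE, adjusted p = 0.00161), with -0.31 ± 0.065 in shCdk8-1 (adjusted p = 0.0445) and -0.55 ± 0.064 in shCdk8-2 (adjusted p = 6.75e-04).

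Acta2 was the only called gene among the 16 tested of 20 smooth muscle contractile genes, beside 0.298% of all genes called lower. This and all other gene lists were chosen with earlier results of these data known. Counts of list members, here and below, therefore describe the lists and are not independent evidence. The list includes actins, calponins, tropomyosins and myosin light chain. The median difference of the list was -0.11, beside -0.0065 over all genes, and 6 members were lower and 1 higher at an unadjusted p under 0.05, beside 5.76% and 3.12% of all genes. Tagln2, a calponin-related actin-binding protein, had -0.19 (adjusted p = 0.0568), Cald1 -0.11 (0.383), Smtn -0.12 (0.404), Tpm1 -0.10 (0.4998) and Cnn2 -0.08 (0.561). Csrp1, a LIM-domain protein, was at 0.15 (0.434). Myl9, the regulatory light chain, had -0.39 (0.568), Actg2 -0.31 (0.838), Synpo2 -0.59 (0.708) and Lmod1 -0.45 (0.905), with wide errors at mean levels of 0.255 to 5.97 CPM. The remaining members, Mylk, Tpm2, Des, Acta1 and Fhl2, had differences between -0.05 and 0.25 with no adjusted p below 0.578.

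Ccl7 encodes a chemokine that attracts monocytes. It was the only call among 11 tested chemokines and myeloid factors, beside 0.298% of all genes called lower. That list too was chosen with earlier results of these data known. In cntrl cells, Ccl7 was at 36.3, 42.9 and 44.1 CPM in DMSO and 92.1, 111 and 107 CPM in SnxB. In shCdk8-1 it was at 11.4, 12.5 and 11.5 CPM and 14.7, 17.6 and 15.7 CPM, and in shCdk8-2 at 13.1, 14.7 and 15.2 CPM and 24.8, 24.5 and 23.2 CPM. SnxB libraries lay above DMSO libraries in every line, while all shCdk8 libraries lay below all cntrl libraries in both conditions. This gave a mean difference of -0.73 ± 0.102 (adjusted p = 0.00205).

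Ereg encodes epiregulin, a ligand of the epidermal growth factor receptor. In cntrl cells, Ereg was at 110, 102 and 109 CPM in DMSO and at 150, 140 and 139 CPM in SnxB. The shCdk8-1 libraries were at 40.3, 39.2 and 43.0 CPM and at 40.1, 37.6 and 43.4 CPM, and in shCdk8-2 at 45.4, 48.6 and 47.0 CPM and at 45.9, 48.5 and 45.7 CPM. The groups separated in cntrl and overlapped in both shCdk8 lines. The mean difference was -0.43 ± 0.062 (adjusted p = 0.00209), and the values in the lines were -0.43 and -0.43.

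Met, the receptor of hepatocyte growth factor, was at 537 to 571 CPM in cntrl in DMSO and 616 to 689 CPM in SnxB, against 209 to 243 and 189 to 200 CPM in shCdk8-1, and had a mean difference of -0.35 ± 0.069. Lrig1, a feedback inhibitor of receptor tyrosine kinases, had -0.29 ± 0.056 and Gpc1, a heparan sulfate proteoglycan of the cell surface, -0.26 ± 0.045. For Lrig1 and Gpc1 all SnxB libraries lay above all DMSO libraries in cntrl and below them in both shCdk8 lines. Agt, the precursor of angiotensin, was at 0.833 to 1.48 CPM in cntrl in DMSO and 2.78 to 4.41 CPM in SnxB, beside 15.6 to 17.5 and 22.7 to 23.1 CPM in shCdk8-1 and 12.1 to 13.5 and 18.1 to 20.6 CPM in shCdk8-2. Its SnxB effect was above 0 in each line and its mean difference was -1.13 ± 0.214 (adjusted p = 0.0217).

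Serpinf1, which encodes the anti-angiogenic factor PEDF, had -0.48 ± 0.091, Nptx1, a secreted pentraxin of neurons, -0.30 ± 0.048, and Lgals3bp, a secreted glycoprotein that interferon induces, -0.25 ± 0.046. Nptx1 was at 475 to 483 CPM in cntrl in DMSO and 38.9 to 40.1 CPM in shCdk8-1, and its SnxB libraries, at 722 to 805 and 47.6 to 52.2 CPM, lay above the DMSO libraries in both lines. The transcription factors Prdm1, known as Blimp-1, Ets2 and the regulator Irf2bpl had -0.85 ± 0.167, -0.23 ± 0.049 and -0.32 ± 0.065. They passed in 6, 6 and 4 of the 18 fits that left out 1 library. Prdm1 was at 3.14 to 3.70 CPM in cntrl in DMSO and 6.82 to 7.76 CPM in SnxB, and its groups overlapped in both shCdk8 lines.

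Genes of the extracellular matrix made up the next group. Thbs2 encodes thrombospondin-2, a matricellular inhibitor of angiogenesis. In cntrl cells, Thbs2 was at 1.6, 2.82 and 2.16 CPM in DMSO and at 5.41, 3.94 and 4.51 CPM in SnxB. In shCdk8-1 it was at 72.1, 77.8 and 72.5 CPM and at 71.7, 63.0 and 68.2 CPM, and in shCdk8-2 at 59.6, 57.4 and 57.5 CPM and at 65.9, 61.6 and 61.8 CPM. SnxB libraries were above DMSO libraries in cntrl and shCdk8-2 and below them in shCdk8-1, and every shCdk8 library was far above every cntrl library. This gave a mean difference of -1.06 ± 0.167 (adjusted p = 0.00505).

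Of 24 collagen genes, 17 were tested and 3 were called, all lower, beside 0.298% of all genes called lower. They were Col6a2 (-0.31 ± 0.054, adjusted p = 0.0109), Col6a1 (-0.28 ± 0.059, adjusted p = 0.0462) and Col3a1 (-0.25 ± 0.052, adjusted p = 0.0423). Col6a1 and Col6a2 are chains of collagen VI, which forms beaded filaments, and Col3a1 is a fibrillar collagen. Col6a2 was at 318 to 329 CPM in cntrl in DMSO and 417 to 466 CPM in SnxB, 670 to 682 and 672 to 743 CPM in shCdk8-1, and 523 to 545 and 579 to 619 CPM in shCdk8-2. Its groups were apart in cntrl and shCdk8-2 and overlapped in shCdk8-1. Col3a1 was at 1960 to 2020 CPM in cntrl in DMSO and 2470 to 2770 CPM in SnxB.

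The median difference over the 17 collagens was -0.19, with 8 lower and 0 higher at an unadjusted p under 0.05, beside 5.76% and 3.12% of all genes. Col16a1 had -0.23 (adjusted p = 0.0978). Libraries that stood apart moved with this result. The highest levels of Col6a1, Col6a2 and Col3a1 in cntrl in SnxB, 1400, 466 and 2770 CPM, were those of replicate 1, and the lowest in shCdk8-1 in SnxB, 1560, 672 and 1440 CPM, those of replicate 2, which are among the 3 libraries of lowest mitochondrial share. Without those 3, Col6a2 was the only collagen called (-0.23, adjusted p = 0.0408), Col6a1 had -0.18 (0.219) and Col3a1 -0.17 (0.227), and over 18 collagens tested the median was -0.07, with 6 lower and 0 higher at an unadjusted p under 0.05. Col6a1 and Col3a1 passed the threshold in only 3 of the 18 fits that left out 1 library, and Col6a2 in 17. The summed level of the 8 fibroblast markers, of which Col1a1 and Col1a2 are themselves collagens, is set beside this. In cntrl it was 548 to 557 CPM in DMSO and 634 to 731 CPM in SnxB. In shCdk8-1 it was 397 to 448 and 418 to 467 CPM, and in shCdk8-2 418 to 448 and 471 to 504 CPM. The sum was carried mostly by Pdgfra and Pdgfrb, and 5 of the 8 markers were tested with none called (median difference -0.21). The lowest difference was -1.31 in the fibroblast and in the collagen list, so their medians are not independent. The part of these markers in the collagen result was not tested, and in bulk libraries fewer cells of a type and less RNA per cell cannot be told apart.

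Among 14 tested of 25 matrix glycoproteins, a list chosen with earlier results known, Thbs2 was the only one called, beside 0.298% of all genes called lower. Fbn1 (-0.70, adjusted p = 0.120), Vcan (-0.32, adjusted p = 0.513) and Fbln2 (-0.17, adjusted p = 0.394) did not pass. The median of that list was -0.12. Among 17 tested of 24 matrix proteases and their inhibitors, only Mmp2, a gelatinase, was called, beside 0.298% of all genes called lower. Its mean difference was -0.40 ± 0.084 (adjusted p = 0.0433). Mmp2 was at 11.9 to 13.8 CPM in cntrl in DMSO and 15.8 to 19.7 CPM in SnxB, and at 42.0 to 46.9 CPM in all 12 shCdk8 libraries. It passed in 1 of the 18 fits that left out 1 library. Adamts8, a secreted metalloprotease, had -0.64 ± 0.132 with cntrl libraries that overlapped between conditions (52.2 to 60.1 and 56.6 to 62.6 CPM) and lower levels in SnxB in shCdk8-1 (2.89 to 3.93 against 1.9 to 2.64 CPM) and shCdk8-2 (6.66 to 7.35 against 4.33 to 5.77 CPM). Adamts8 was the only lower gene of which the cntrl groups overlapped, and it passed in 5 of the 18 fits that left out 1 library.

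All 27 genes of a list of glycolysis and hypoxia-responsive genes were tested. The list holds glucose transport, the enzymes of glycolysis and targets of hypoxia-inducible factor. Adm, Pfkl and Slc2a1 were called, all lower, beside 0.298% of all genes, and 12 members were lower and 0 higher at an unadjusted p under 0.05, beside 5.76% and 3.12%. The median difference was -0.11, and 22 of 27 were below 0, beside 52.4% of all genes.

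Adm encodes adrenomedullin, a vasodilator peptide that is a common hypoxia marker. In cntrl cells, Adm was at 40.5, 42.6 and 43.6 CPM in DMSO and at 79.0, 88.8 and 83.2 CPM in SnxB. The shCdk8-1 libraries were at 36.8, 35.2 and 38.1 CPM and at 40.2, 46.3 and 45.5 CPM, and in shCdk8-2 at 30.1, 34.2 and 30.2 CPM and at 49.1, 44.8 and 47.0 CPM. SnxB libraries were above DMSO libraries in each line, with the smallest step in shCdk8-1. The mean difference was -0.57 ± 0.075 (adjusted p = 0.00161), with -0.73 ± 0.088 in shCdk8-1 and -0.41 ± 0.088 in shCdk8-2.

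Pfkl, the liver-type phosphofructokinase that commits glucose to glycolysis, was at 184 to 190 CPM in cntrl in DMSO and 206 to 215 CPM in SnxB, and its groups overlapped in shCdk8-1 (329 to 350 and 303 to 333 CPM) and in shCdk8-2 (239 to 242 and 223 to 240 CPM). Its mean difference was -0.25 ± 0.049 (adjusted p = 0.0217). Slc2a1, the glucose transporter GLUT1, was at 221 to 238 CPM in cntrl in DMSO and 258 to 265 CPM in SnxB, with overlap in both shCdk8 lines, and had -0.21 ± 0.045 (adjusted p = 0.0462). Slc2a1 passed in 2 and Pfkl in 7 of the 18 fits that left out 1 library, and Adm in all 18. Egln3, a prolyl hydroxylase of the oxygen-sensing pathway, had -0.22 (adjusted p = 0.120). Outside the list, Slc16a3, the lactate exporter MCT4, had -0.27 ± 0.047 (adjusted p = 0.0110), and Ak4, an adenylate kinase of mitochondria, had -0.30 ± 0.052 (adjusted p = 0.0119).

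Because these 3 genes belong to a pathway with a known promoter element, their promoters are shown, from 250 bases before to 50 after the RefSeq start site (GRCm38.p6). Capitals mark ACGTG or GCGTG, the core letters that hypoxia-inducible factors recognize, on either strand, so that a CACGC in capitals is GCGTG on the other strand and a CACGTG counts once for ACGTG on each. The regions are chr7:110627407-110627706 on the plus strand for Adm, chr10:78009758-78010057 on the minus strand for Pfkl and chr4:119108495-119108794 on the plus strand for Slc2a1.
Adm: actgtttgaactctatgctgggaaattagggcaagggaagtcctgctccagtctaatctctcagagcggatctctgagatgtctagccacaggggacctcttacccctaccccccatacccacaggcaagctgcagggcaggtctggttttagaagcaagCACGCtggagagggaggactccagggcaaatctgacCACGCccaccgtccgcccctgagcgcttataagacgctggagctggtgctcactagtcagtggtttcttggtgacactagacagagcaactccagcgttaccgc
Pfkl: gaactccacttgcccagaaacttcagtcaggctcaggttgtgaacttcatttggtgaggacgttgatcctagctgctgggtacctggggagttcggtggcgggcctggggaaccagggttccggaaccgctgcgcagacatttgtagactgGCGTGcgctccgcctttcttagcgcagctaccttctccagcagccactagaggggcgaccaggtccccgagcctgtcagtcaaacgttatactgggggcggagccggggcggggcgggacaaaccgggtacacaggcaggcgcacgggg
Slc2a1: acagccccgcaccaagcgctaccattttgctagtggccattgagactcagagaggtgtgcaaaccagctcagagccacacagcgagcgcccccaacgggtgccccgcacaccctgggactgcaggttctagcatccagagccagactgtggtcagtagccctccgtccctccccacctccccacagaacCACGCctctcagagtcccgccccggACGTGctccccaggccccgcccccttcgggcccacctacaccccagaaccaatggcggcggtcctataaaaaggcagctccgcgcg

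Adm held 2 matches to GCGTG, Pfkl 1, and Slc2a1 1 match to each motif. Of the 38 lower genes, 28 had a promoter in the reference, with 34 start sites, of which 10 (29.4%) held ACGTG and 17 held GCGTG. Among the promoters of all genes tested, 25.7% held ACGTG and 50.5% held GCGTG, and over the 32851 promoters of the reference the shares were 19.6% and 32.4%. The lower genes were thus near the background for both motifs. Of the same 34 promoters, 2 (5.88%) held TTCNNNGAA, the letters of STAT sites, 4 (11.8%) TGANTCA, those of AP-1 sites, and 1 (2.94%) a CArG box of serum response factor, beside 6.69%, 5.26% and 1.21% among all genes tested. In the promoters of the glycolysis and hypoxia list, 55.9% held ACGTG and 55.9% held GCGTG.

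The other lower genes belonged to no list described above. Atp6v0a4, a subunit of the proton pump V-ATPase, had the most negative mean difference of the called genes, -1.50 ± 0.213 (adjusted p = 0.00205). In cntrl cells, Atp6v0a4 was at 0.739, 0.759 and 0.784 CPM in DMSO and at 2.84, 2.46 and 2.97 CPM in SnxB. In shCdk8-1 it was at 6.11, 7.52 and 7.28 CPM and at 7.74, 8.98 and 8.89 CPM, and in shCdk8-2 at 3.74, 3.98 and 3.29 CPM and at 4.29, 5.24 and 4.96 CPM. All SnxB libraries lay above all DMSO libraries in every line, and the cntrl libraries in SnxB stayed below all shCdk8 libraries in DMSO.

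Cbr2, a carbonyl reductase, had the lowest adjusted p of all genes, 0.00116, with a mean difference of -0.57 ± 0.068. In cntrl cells, Cbr2 was at 21.1, 19.3 and 19.0 CPM in DMSO and at 38.3, 39.0 and 39.6 CPM in SnxB. The shCdk8-1 libraries were at 48.6, 49.5 and 50.3 CPM and at 60.7, 67.8 and 61.4 CPM, and in shCdk8-2 at 40.7, 39.7 and 39.6 CPM and at 56.8, 51.7 and 58.0 CPM. The conditions were apart in every line, and cntrl in SnxB came close to shCdk8-2 in DMSO.

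Osbp2, an oxysterol-binding protein, had -0.81 ± 0.154, and its cntrl libraries at 10.4 to 11.7 CPM in DMSO and 14.1 to 18.5 CPM in SnxB lay above all shCdk8 libraries. Kctd14 had -0.77 ± 0.127, with 5.04 to 5.49 and 9.24 to 11.6 CPM in cntrl below 23.4 to 50.5 CPM in the shCdk8 lines. Cd244a, the NK-cell receptor 2B4, was near the detection floor in cntrl, at 0.379 to 0.931 CPM in DMSO and 1.21 to 1.53 CPM in SnxB, and its mean difference of -1.37 ± 0.284 (adjusted p = 0.0404) passed in 3 of the 18 fits that left out 1 library. The cytoskeletal protein gene Gas7 had -0.39 ± 0.056, the transposase-derived Pgbd5 -0.33 ± 0.049, the orphan receptor Gprc5b -0.48 ± 0.093 and the hedgehog-related transporter Disp2 -0.45 ± 0.084. The remaining lower genes, Arhgap17, Dtx4, Gm2115, Mlph and Spata2, had mean differences of -0.24 to -0.35. In this order they passed in 2, 18, 5, 10 and 3 of the 18 fits that left out 1 library.

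**Figure D3:**
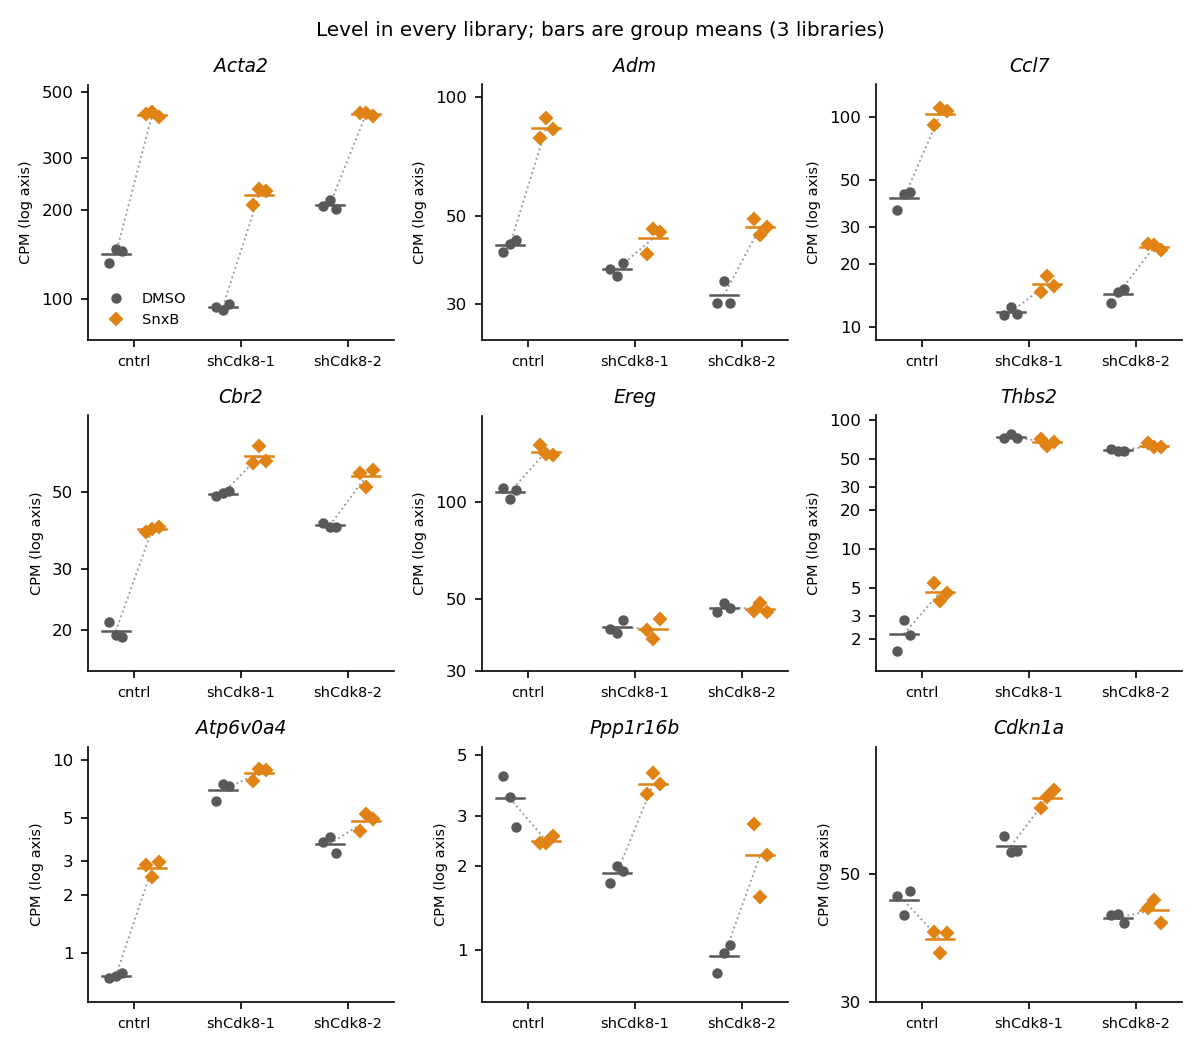
Level in CPM (log axis) of 9 called genes in each of the 18 libraries, with DMSO as grey circles, SnxB as orange diamonds and bars for group means of 3 libraries. Dotted lines join the means within a line: they are steepest in cntrl for Adm, Ccl7, Cbr2, Ereg, Thbs2 and Atp6v0a4, and slope in opposite directions in cntrl and the shCdk8 lines for Ppp1r16b and Cdkn1a.

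The 7 higher genes were led by Ppp1r16b, a regulatory subunit of protein phosphatase 1 also known as TIMAP. In cntrl cells, Ppp1r16b was at 4.19, 3.52 and 2.74 CPM in DMSO and at 2.41, 2.41 and 2.56 CPM in SnxB. In shCdk8-1 it was at 1.74, 1.99 and 1.91 CPM and at 3.6, 4.28 and 3.91 CPM, and in shCdk8-2 at 0.827, 0.970 and 1.04 CPM and at 2.81, 1.54 and 2.19 CPM. SnxB libraries were below DMSO libraries in cntrl and above them in both shCdk8 lines. This gave a mean difference of 1.63 ± 0.230 (adjusted p = 0.00205), with 1.55 ± 0.254 and 1.71 ± 0.291 in the lines.

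Cdkn1a encodes the cell cycle inhibitor p21. In cntrl cells, Cdkn1a was at 45.8, 42.4 and 46.6 CPM in DMSO and at 39.7, 36.4 and 39.4 CPM in SnxB. The shCdk8-1 libraries were at 58.0, 54.5 and 54.8 CPM and at 64.8, 67.8 and 69.8 CPM, and in shCdk8-2 at 42.4, 42.5 and 41.0 CPM and at 43.6, 45.1 and 41.1 CPM. SnxB libraries lay below DMSO libraries in cntrl and above them in shCdk8-1, and the groups overlapped in shCdk8-2. The mean difference was 0.38 ± 0.062 (adjusted p = 0.00585). Cdkn1a was the only called gene among 22 tested CDK inhibitors and p53 targets, beside 0.0548% of all genes called higher.

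Acss2, which makes acetyl-CoA from acetate, had 0.52 ± 0.091 (adjusted p = 0.0114): its cntrl groups overlapped (15.3 to 17.5 and 13 to 15.4 CPM) and SnxB lay above DMSO in shCdk8-1 (32.8 to 35.4 and 42.9 to 45.1 CPM) and in shCdk8-2 (18.7 to 20.5 and 23.3 to 26.5 CPM). It was the only call among 32 genes of sterol synthesis and lipogenesis, beside 0.0548% of all genes called higher. Tgfb2, a ligand of the TGF-beta receptors, had 0.47 ± 0.099 (adjusted p = 0.0430), with overlapping cntrl groups and higher SnxB libraries in both shCdk8 lines. Tgfb2 was the only call among 22 tested genes of the TGF-beta and BMP pathway, beside 0.0548% of all genes called higher. It passed in 3 of the 18 fits that left out 1 library. Cltb, a clathrin light chain, had 0.52 ± 0.099, and Tmem37, a calcium channel subunit, 0.46 ± 0.089. Serpinb9b, a granzyme B inhibitor-like serpin with close paralogs among which reads could be split, had 0.33 ± 0.070. Cltb, Tmem37 and Serpinb9b passed in 15, 16 and 4 of the 18 fits that left out 1 library. Over the libraries the summed level of the 6 endothelial markers went from 5.83 to 6.47 CPM in DMSO to 3.02 to 3.88 CPM in SnxB in cntrl, from 15.4 to 17.3 to 18.5 to 19.8 CPM in shCdk8-1 and from 7.56 to 8.88 to 8.92 to 9.79 CPM in shCdk8-2. The sum was carried by different genes, by Cdh5 in cntrl (4.12 to 4.74 CPM in DMSO and 1.95 to 2.60 CPM in SnxB) and by Pecam1 in shCdk8-1 (13.3 to 14.9 and 15.8 to 17.6 CPM). Of these markers 3 were tested and 0 called, with differences of 0.00 for Pecam1, 0.99 for Cdh5 and 0.86 for Vwf, the last pair at an unadjusted p under 0.05 (3.12% of all genes higher), and Emcn had at most 3 counts in every library. Their part in the result was not tested.

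A further list of 10 genes held 8 that the study's text names, none of which was called, and Ccl7 and Thbs2, which were added with earlier results of these data known, so that their calls are not independent evidence. The difference was 0.67 for Snai2 (adjusted p = 0.787), which had at most 1.86 CPM, 0.17 for Mmp9 (0.840), 0.00 for Ccl2 (0.999), 0.04 for Icam1 (0.981), -0.09 for Cd274 (0.902) and -0.06 for Raet1d (0.843). For the MHC class I genes H2-K1 and H2-D1 the differences were 0.06 (95% interval -0.07 to 0.19) and 0.05 (-0.03 to 0.13). H2-D1 was at 595 to 616 and 585 to 591 CPM in cntrl in DMSO and SnxB and at 248 to 306 CPM in all shCdk8 libraries. H2-K1 and H2-D1 were thus lower in all shCdk8 libraries than in all cntrl libraries in both conditions, and no difference of the SnxB effect on them was detected.

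Gene lists of immune recognition and of Mediator gave few calls or none, beside 0.352% of all genes called. At that share 0 calls is the background outcome for lists of this size, so these counts say little about the lists. Of 16 MHC class I antigen presentation genes tested, 0 were called and 0 reached an unadjusted p under 0.05 (median difference 0.011, range -0.16 to 0.26). Of 12 ligands of NK and T cells, 0 were called (median -0.054), and of 14 JAK-STAT genes 0 (median -0.032). Of 37 interferon-stimulated genes only Lgals3bp was called (median -0.031), beside 0.298% of all genes called lower. At an unadjusted p under 0.05, 0 of the ligands and 3 of the JAK-STAT genes were lower, and 0 of either were higher. Of the interferon-stimulated genes 1 was lower and 1 higher, beside 5.76% and 3.12% of all genes. In the kinase module, 6 of 7 genes were tested and 0 called: Ccnc had 0.14 (adjusted p = 0.398), Med13l -0.20 (0.4995), Med12 -0.17 (0.754) and Med13 -0.16 (0.702). Of 26 Mediator core subunits and 38 cell cycle genes, 0 were called, with medians of -0.012 and -0.0086. At an unadjusted p under 0.05, 1 kinase module gene was lower and 1 higher. For the Mediator core these counts were 0 and 0, and for the cell cycle genes 3 lower and 0 higher. NF-kB (16), immediate early (24), SRF-linked (12), Wnt (22), epithelial-mesenchymal transition (14), amino acid stress (18) and xenobiotic (12) genes had 0 calls, and so had the mammary epithelial (4) and leukocyte markers (2). At an unadjusted p under 0.05, 3 NF-kB, 4 immediate early, 2 SRF-linked, 2 Wnt and 4 epithelial-mesenchymal transition genes were lower and 0 higher. Of the amino acid stress and xenobiotic genes 0 were lower, and 1 and 2 were higher. The shares over all genes were 5.76% lower and 3.12% higher. Under 8 other settings the calls reached 2 for the immediate early and the epithelial-mesenchymal transition genes and 1 for the NF-kB and SRF-linked genes, and ranged from 1 to 8 for collagens and from 1 to 5 for the glycolysis and hypoxia list.

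**Figure D4:**
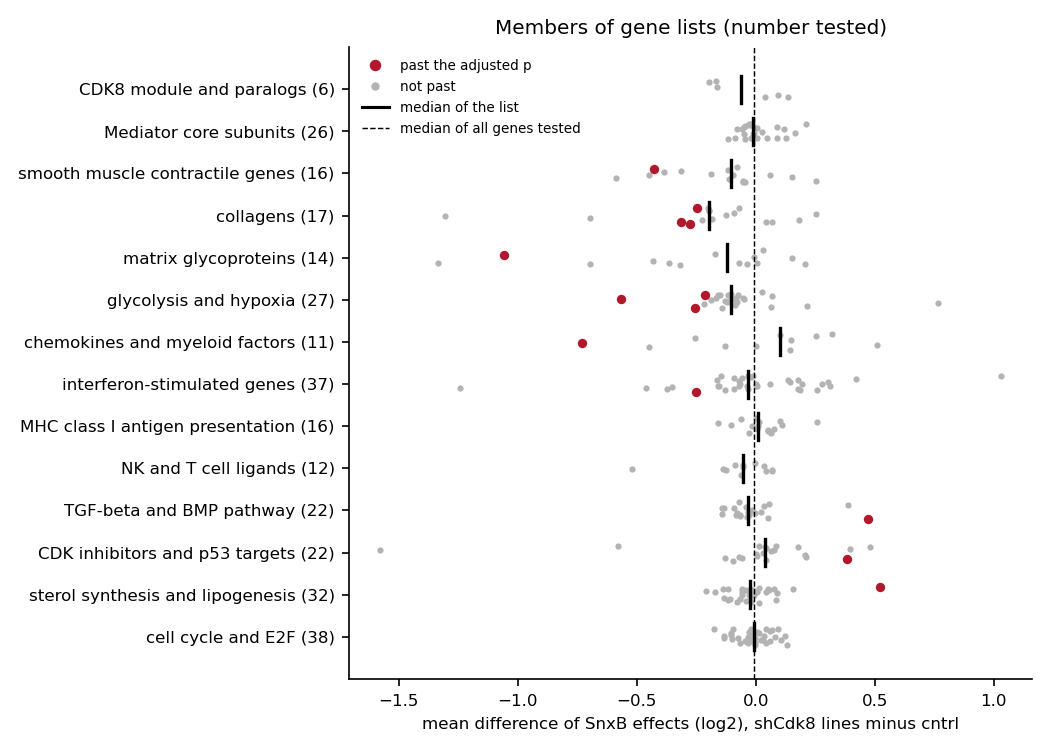
Mean difference of SnxB effects (log2) on the x axis for the tested members of 14 gene lists, with called members in red, others in grey and a bar at the list's median. The dashed line is the median over all genes, -0.0065. The chemokine, MHC class I and CDK inhibitor lists have medians to its right, and all other lists to its left. Furthest left are collagens (-0.19), matrix glycoproteins (-0.12), the glycolysis and hypoxia list (-0.11) and smooth muscle contractile genes (-0.11).

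The lines were then taken singly, which share the 6 cntrl libraries. In shCdk8-1, 39 genes passed the adjusted p (0.305%), 9 higher (0.0705%) and 30 lower (0.235%), and 9.9% of all genes had an unadjusted p under 0.05. Beyond 2-fold were 5 genes (0.0391%), with Atp6v0a4, Cd244a, Agt and Thbs2 lower (0.0313%) and Ppp1r16b higher (0.00783%). In shCdk8-2, 7 passed (0.0548%), 1 higher (0.00783%) and 6 lower (0.047%), and 5.86% of all genes had an unadjusted p under 0.05. Beyond 2-fold were 2 genes (0.0157%), Atp6v0a4 lower (0.00783%) and Ppp1r16b higher (0.00783%). The 7 were Acta2, Atp6v0a4, Cbr2, Ereg, Gas7, Pgbd5 and Ppp1r16b. Of the 39, 33 were also called in the mean, and the 6 others were Cda (0.76 ± 0.159), a cytidine deaminase, Trim54 (0.60 ± 0.114), Cerk, the ceramide kinase (0.28 ± 0.058), Sdc1, the proteoglycan syndecan-1 (-0.25 ± 0.051), Retsat (-0.26 ± 0.052) and Nadk2, the mitochondrial NAD kinase (-0.29 ± 0.056). Without 1 library the count in shCdk8-1 ranged from 13 to 42 and was 25 or less without cntrl replicate 1 or 2 in DMSO, cntrl replicate 1 or 3 in SnxB, any shCdk8-1 library in DMSO or shCdk8-1 replicate 3 in SnxB. In shCdk8-2 it ranged from 1 to 10 and was 4 or less without 13 of the 18 libraries, the exceptions being shCdk8-1 replicates 2 and 3 in DMSO, cntrl replicate 2 in SnxB and shCdk8-1 replicates 1 and 2 in SnxB. The counts beyond 2-fold ranged from 3 to 5 in shCdk8-1, with 3 without cntrl replicate 2 in DMSO or cntrl replicate 1 or 3 in SnxB, and from 0 to 4 in shCdk8-2. Without the 3 libraries of lowest mitochondrial share, 9 genes passed in shCdk8-1 and 8 in shCdk8-2, with 3 and 1 beyond 2-fold.

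The difference between the shCdk8 lines was itself tested and 0 of 12772 genes passed (edgeR, smallest adjusted p 0.9999), with 431 (3.37%) at an unadjusted p under 0.05. DESeq2 and limma voom also called 0, and the fit without a filter on low counts called 114. The size of the difference was larger in shCdk8-1 for 33 of the 38 lower and 5 of the 7 higher genes. Over all genes, 47.2% had a lower value in shCdk8-1 than in shCdk8-2. The genes were called on the mean of the same 2 differences, so these counts describe them and test nothing. The median standard errors were equal in both lines (0.1). Acta2 was a lower gene with the larger size in shCdk8-2, at -0.31 in shCdk8-1 and -0.55 in shCdk8-2 (unadjusted p = 0.00158). Adm had -0.73 and -0.41 (unadjusted p = 0.00223), and Cdkn1a 0.50 and 0.27 (unadjusted p = 0.00392). None of these passed adjustment, so no gene can be said to differ between the lines.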

How the data were processed

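The deposited files hold counts per gene for 18 libraries of E0771 cells. The authors trimmed 50-bp single-end reads with Trimmomatic, aligned them with STAR and counted reads over exons with featureCounts (version 1.5.1 per the file headers, reverse-stranded, GENCODE release M13, GRCm38). Reads that map to several places or genes are left out by that tool's defaults, which lowers genes with close paralogs.

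Counts of 50686 genes were analysed with edgeR 4.0.16 in R 4.3.3. The filterByExpr function removed genes of low count (count minimum 10, total 15), and libraries were scaled by TMM and fitted by 1 mean per group over all 18 libraries. The quasi-likelihood F-test was applied to each difference of SnxB effects, with Benjamini-Hochberg adjustment over 12772 genes. Intervals are 95% and errors are standard errors. Intervals rest on the spread between libraries, and the floor of 3 counts per library covers counting error only. Groups and replicate numbers follow the labels. For shCdk8-2 replicates 1, 2 and 3 the file headers carry the numbers 2, 3 and 3, in DMSO and in SnxB alike. A number thus occurs more than once within each of these groups. Whether the libraries that share a number are separate replicates was not tested. If they are not, the tests that use shCdk8-2 rest on fewer replicates than stated. All pairs of replicates differed beyond sampling noise.

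Symbols came from GENCODE M21 of the same build, and promoters from RefSeq. Alternatives were RLE scaling (DESeq2's size factors), library totals, other filters, a replicate block, DESeq2 1.42.0, limma voom (limma 3.58.1), only the groups compared, other thresholds and leaving out each library, and, chosen after seeing the data, leaving out the 3 libraries of lowest mitochondrial share. The fitting steps were tested on simulated data. The rule for named genes took, at a mean of at least 1 CPM, the 10 largest differences each way past the adjusted p for the mean difference and the 3 largest each way for the other differences, all members of the CDK8 module, smooth muscle and study-named lists (the last with Ccl7 and Thbs2 added), and up to 4 members of each other list with the lowest adjusted p. Members and lists were chosen with earlier results of these data known, and the other called genes were named after their values were seen.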

Additional observations from a re-analysis of the deposited data

Results flagged for a closer look

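The SnxB effect on 45 genes differed between the shCdk8 lines and cntrl by a test of the difference itself (edgeR's quasi-likelihood test, Benjamini-Hochberg over all genes tested), with the same sign in both shCdk8 lines, which share the cntrl libraries. For the genes with a lower effect the adjusted p was 0.00116 for Cbr2, 0.00161 for Adm and Acta2, 0.00205 for Atp6v0a4 and Ccl7, 0.00209 for Ereg and Gas7, 0.0027 for Pgbd5 and 0.00505 for Thbs2 and Nptx1. It was 0.0069 for Kctd14, 0.00757 for Dtx4, 0.0106 for Gpc1, 0.0109 for Col6a2, 0.011 for Slc16a3 and 0.0119 for Ak4. Next came 0.0172 for Lgals3bp, 0.0179 for Disp2, 0.0217 for Agt, Osbp2, Serpinf1, Lrig1 and Pfkl, 0.0223 for Gprc5b, 0.0234 for Met and Mlph and 0.026 for Prdm1. Weaker were 0.0314 for Irf2bpl, 0.0329 for Gm2115, 0.0358 for Adamts8, 0.0396 for Spata2, 0.0404 for Cd244a and 0.0411 for Ets2. The adjusted p was then 0.0423 for Col3a1, 0.0433 for Mmp2 and Arhgap17 and 0.0462 for Col6a1 and Slc2a1. For the genes with a higher effect the adjusted p was 0.00205 for Ppp1r16b, 0.00585 for Cdkn1a, 0.0114 for Acss2, 0.0217 for Tmem37 and Cltb, 0.043 for Tgfb2 and 0.0433 for Serpinb9b. The sizes of these differences are given with the levels above.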

How the results depend on the processing

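The direction of the mean difference of all 45 genes was kept under 8 other settings and in the 18 fits that left out 1 library. It was also kept without the 3 libraries of lowest mitochondrial share. With only the groups compared there is no mean difference, and directions were not examined. The 45 genes were called on the same libraries, so a kept direction is not independent evidence. Counts past the adjusted p are given here in the order mean of both shCdk8 lines, shCdk8-1 and shCdk8-2, where the values above are 45, 39 and 7, and 5, 5 and 2 beyond 2-fold. With no filter on low counts, 27330 genes were tested and the counts were 223, 389 and 44; 15 and 9 went beyond 2-fold in the lines, and 114 genes, 9 beyond 2-fold, passed between them. All 223 were among the genes tested with the filter, and the cause was not tested. DESeq2 gave 59, 62 and 20, and 2 beyond 2-fold in the mean. Limma voom gave 3 genes in shCdk8-2, with 3 beyond 2-fold in the mean and 0 in shCdk8-2. With only the groups compared, 13 and 4 genes passed, 3 and 1 beyond 2-fold. An adjusted p under 0.01 left 14, 10 and 1, with 3, 3 and 0 beyond 2-fold. A fold above 1.5 gave 10 and 13 in the mean and shCdk8-1, and no fold threshold 45, 39 and 7.

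Without 1 library the counts ranged from 17 to 47, 13 to 42 and 1 to 10, and beyond 2-fold from 2 to 5, 3 to 5 and 0 to 4. Without the 3 libraries of lowest mitochondrial share, a setting added after seeing the data, 25, 9 and 8 genes passed, with 2, 3 and 1 beyond 2-fold. Of the list members that did not pass, Acta1 turned to -0.0778 under limma voom and Ccl2 to -0.02106 with no filter, and without 1 library the sign was not fixed for Acta1 (-0.82 to 0.40), Ccl2 (-0.06135 to 0.05512), Icam1 (-0.12 to 0.26), Des (-0.21 to 0.17), Lmod1 (-2.36 to 0.000881) and Cd274 (-0.16 to 0.01243).

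Whether the replicate numbers pair the samples was not settled. The correlation of deviations from the group means for same-number pairs within lines ran from -0.207 to 0.17, and 3 of 9 pairs exceeded 0.1. Over all 45 same-number pairs across groups it ran from -0.427 to 0.487, and 13 exceeded 0.1. With 3 libraries per group, these values cannot show that the samples were unpaired. A replicate block gave 37 genes in the mean and 11 in shCdk8-2. A block within each line gave 22, 16 and 4, with 2, 3 and 1 beyond 2-fold, and Acta1 at -0.0021. The depth limited genes under the floor of 3 counts, 0.132 to 0.182 CPM.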
